A study of Homo sapiens with 2 samples.

Results

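The pyruvate dehydrogenase complex and the enzymes that switch it off and on were described by 10 genes: the kinases PDK1, PDK2, PDK3 and PDK4, the phosphatase catalytic subunits PDP1 and PDP2, and the subunits PDHA1, PDHB, DLAT and PDHX. They were taken by gene symbol from the 58735 genes of the deposited table, where all 10 symbols were found once. The list was chosen by pathway with the FPKM of both libraries, and the high shJAM3 value of PDK4, already known, so the values are descriptions. RNA of A2780, an established human ovarian cancer cell line, was sequenced after poly(A) selection in 1 library labelled shJAM3 (genotype given as JAM3 knockdown) and 1 labelled shControl (genotype given as WT, with an empty vector according to the design text). JAM3 encodes junctional adhesion molecule C, and the series title links its loss to the PI3K/AKT pathway. The design text speaks of siRNA and a stable knockdown while the titles carry the prefix sh. Neither the construct's sequence nor the number of clones behind the knockdown line is given in the sources used here.

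The complex sits in the mitochondrial matrix and turns pyruvate into acetyl-CoA, the step that commits the carbon of glycolysis to the citric acid cycle or to lipid synthesis. Its E1 enzyme decarboxylates pyruvate, its E2 core passes the acetyl group to coenzyme A on a lipoyl arm, and its E3 enzyme reoxidises that arm. The kinases phosphorylate E1 alpha and stop the complex, and the phosphatases undo this. High kinase activity favours lactate over oxidation and is often described in tumours. PDK1 here is pyruvate dehydrogenase kinase 1, a different gene from the AKT-activating kinase PDPK1 that shares the nickname.

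Each group is 1 library, so the conditions could not be tested, and each difference is one between these libraries without a replicate check. Levels are FPKM, the fragments counted on a gene divided by its exon length and by the library size. Bracketed values are 95% intervals for counting error alone. The shJAM3 library held 16455079 fragments assigned to genes and the shControl library 15570262. JAM3 itself had 14 fragments in shJAM3 (0.154 FPKM) and 18 in shControl (0.215 FPKM), a ratio of 0.716 (0.330 to 1.52), so a difference in the targeted gene was not detectable at this depth. Of the markers of an ovarian carcinoma line, FOLR1 (1012 and 845 FPKM in shJAM3 and shControl), MSLN and the keratins KRT7, KRT8 and KRT18 were abundant. KRT19 was at 0.0770 FPKM in shJAM3 and 0.0279 in shControl, MUC16 at 1.07 and 0.475, EPCAM at 0.690 and 0.904 FPKM, PAX8 at 0.527 and 1.12 FPKM, and WT1, ESR1 and CDH1 were at or below 0.243 FPKM in both. The summed level of 5 immune markers was 1.36 FPKM in shJAM3 and 2.78 in shControl, with PTPRC at 0 in both. The summed level of 4 endothelial markers was 0.405 and 0.482 FPKM in the same order, with KDR at 0 in both. Of 5 fibroblast markers COL1A2 was at 0 in both libraries, and the sum, nearly all of it COL1A1 and PDGFRB, was 14.3 FPKM in shJAM3 and 17.3 in shControl. Across genes the ratio of shJAM3 to shControl followed transcript GC content. Its median log2 value was 0.24 in the lowest of 20 GC bins and -0.50 in the highest. Ratios of the 10 genes are therefore also given after centring on genes of like GC. For genes named from the other lists a centred value is given where centring ends or makes a call. Counts of intervals in those lists are uncentred, and centring changes the calls of some genes not named.

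PDK4 stood apart from the other 9 genes. It encodes the kinase best known from fasting, when muscle and liver raise it to spare glucose. It lies on chromosome 7 at 95583499 to 95596491 on the minus strand of GRCh38. PDK4 had 1373 fragments and 18.2 FPKM (17.3 to 19.2) in shJAM3, against 371 fragments and 5.34 FPKM (4.81 to 5.92) in shControl. The counting intervals of the libraries were far apart. The ratio was 3.41 (3.04 to 3.83), and 2.90 (2.59 to 3.26) after GC centring, its transcript being low in GC at 39.4%. On the scale log2(FPKM + 1) PDK4 was 1.60 higher in shJAM3 and ranked 6 among the 10499 protein-coding genes whose mean reached 1 FPKM, called measured from here on. Its neighbours in that ranking were RGS2, a regulator of G protein signalling, and the olfactory receptor gene OR51B4 above it. RGS2 had 76.6 FPKM in shJAM3 and 20.8 in shControl, and OR51B4 had 5.27 in shJAM3 and 0.767 in shControl. Below it were the ribonucleotide reductase subunit RRM2 (10.4 FPKM in shJAM3 and 2.84 in shControl) and the RNA-binding protein gene ZRANB2 (17.3 and 5.29), which share 20.2% and 8.39% of their exon bases with other genes. No other annotated gene overlaps an exon of PDK4, and none of its 50-base stretches occurs in a transcript of another gene. With GC centring PDK4 ranked 7, and 0.324% of measured protein-coding genes were then higher by at least 1 on the log2 scale.

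The bases upstream of PDK4 are shown because it is the gene the results turn on. They are the 250 bases before the RefSeq start, chr7:95596517-95596766 (GRCh38.p14, read 5′ to 3′ on the minus strand), with GC boxes and the CCAAT box in capitals.
PDK4: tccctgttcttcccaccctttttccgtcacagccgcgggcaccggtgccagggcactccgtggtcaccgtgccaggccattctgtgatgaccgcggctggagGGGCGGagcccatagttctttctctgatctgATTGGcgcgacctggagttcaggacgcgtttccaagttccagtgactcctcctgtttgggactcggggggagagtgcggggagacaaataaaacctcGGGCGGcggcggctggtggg

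In this window a search of both strands found GGGCGG, the GC box, 2 times and CCAAT, on the opposite strand, 1 time. Of 35116 RefSeq promoter windows of this length, 42.6% hold the first and 32.0% the second. PDK4 is a known FOXO and PPAR target and PDK1 a known target of hypoxia-inducible factor, so their motif letters were searched too. GTAAACA, a FOXO site, was in none of the 9 windows found for these genes (PDP1 had none) and in 2.98% of all windows. The PPAR direct repeat, AGGTCA followed by AGGTCA with any 1 base between, was also in none of the 9 and in 0.0171% of all. The hypoxia response core, ACGTG or GCGTG, was in 8 of the 9 windows, against 43.2% of all, and PDK4 was the one without it. The GC box was likewise in 8 of the 9. These 9 windows were 62.0% to 79.6% GC, and the core and the GC box both contain CG. No comparison with windows of like GC was made. PDK1 held ACGTG 2 times. These letters describe the windows, and binding was not measured.

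**Figure D1:**
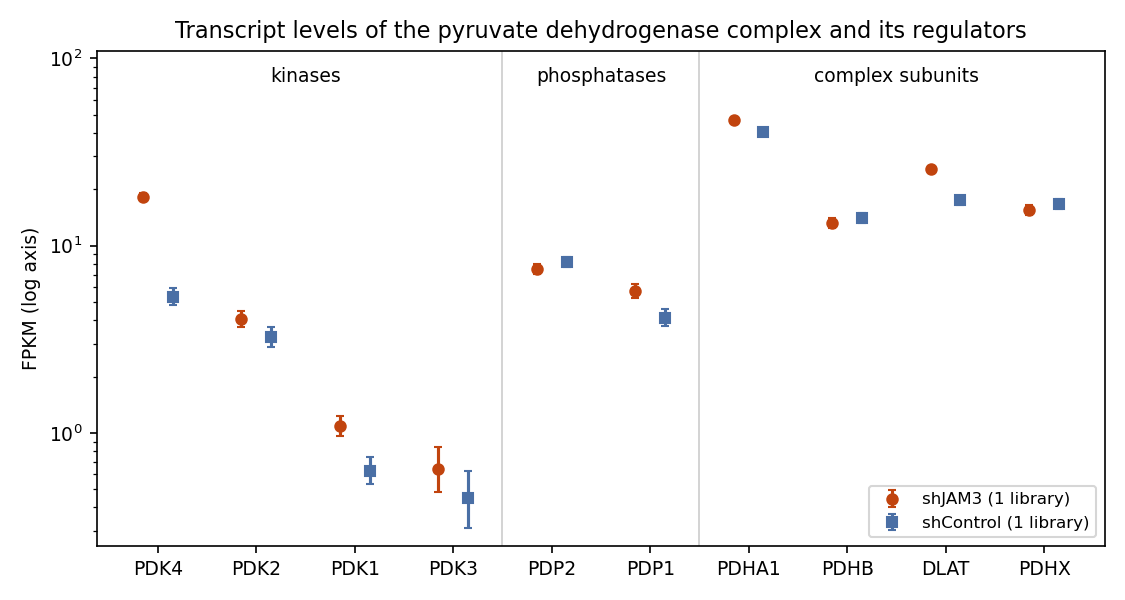
FPKM of the 10 genes (log axis) in the shJAM3 library (circles) and the shControl library (squares), with exact 95% Poisson intervals for counting error, grouped as kinases, phosphatases and complex subunits. PDK4 has the widest gap, 18.2 FPKM in shJAM3 and 5.34 in shControl, and PDHX, PDHB and PDP2 are slightly lower in shJAM3.

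The other kinases were low, and 2 of them lay below the level taken as measured. PDK2, the isoenzyme most widely present in tissues, had 4.07 FPKM (3.67 to 4.50) in shJAM3 and 3.27 (2.89 to 3.68) in shControl, a ratio of 1.25 (1.06 to 1.46). Its transcript is rich in GC at 59.8%, and centring raised the ratio to 1.48 (1.26 to 1.74). On its chromosome 17 locus 38.6% of the PDK2 exon bases lie under SAMD14 on the opposite strand, which had 4 fragments in shJAM3 and 2 in shControl. Without strand information, fragments from those bases cannot be assigned to either gene. PDK1 had 270 fragments and 1.09 FPKM (0.962 to 1.23) in shJAM3, against 144 fragments and 0.630 FPKM (0.531 to 0.742) in shControl. Its ratio was 1.73 (1.41 to 2.13), or 1.47 (1.20 to 1.81) with GC centring. Of the PDK1 exon bases 2.99% lie under AC078883.1 on the opposite strand. PDK3, X-linked and the isoenzyme with the tightest hold on E2, had 53 fragments in shJAM3 and 34 in shControl, levels of 0.642 (0.481 to 0.840) and 0.447 FPKM (0.310 to 0.625). The interval of the PDK3 ratio of 1.44 (0.916 to 2.28) includes 1, so a difference was not detectable at this depth. With GC centring the PDK3 ratio was 1.28 (0.816 to 2.03), again including 1. All 4 kinases thus had ratios above 1, and the counting intervals of 3 excluded it, PDK1 among them although under the measured minimum. Intervals lay above 1 for 34.5% of measured protein-coding genes, and 49.4% had a log2 ratio above 0.

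Summed over the 4 kinases, the level was 24.0 FPKM in shJAM3 and 9.69 in shControl, a ratio of 2.48 (2.28 to 2.70). Without PDK4 the sum was 5.80 FPKM in shJAM3 and 4.34 in shControl, a ratio of 1.34 (1.18 to 1.52). PDK4 supplied 75.9% of the kinase FPKM in shJAM3 and 55.2% in shControl. PDK2 supplied 16.9% and 33.7%, PDK1 4.53% and 6.50%, and PDK3 2.67% and 4.61%, in the same order. By deposited FPKM PDK4 was thus the leading kinase transcript in both libraries. It was at 4.48 times PDK2 (3.99 to 5.02) in shJAM3 and 1.64 times (1.40 to 1.91) in shControl. Fragments from the 38.6% of PDK2 exon bases under SAMD14 cannot be assigned without strand information. PDK2 may therefore be understated in these sums, shares and ratios, and whether PDK4 would still lead in shControl was not tested. Such comparisons between genes depend on the length assigned to each. The deposited lengths are unions of all annotated exons, which exceed the principal transcript 2.58-fold for PDK3 and 1.05-fold for PDK1. Per kilobase of principal transcript PDK3 was above PDK1. Levels were 1.65 and 1.14 FPKM in shJAM3, with overlapping counting intervals, and 1.15 and 0.660 in shControl, where they did not overlap. PDK4 also came first on that scale, at 71.3% of the kinase level in shJAM3 and 49.0% in shControl, with the same limit for PDK2.

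**Figure D2:**
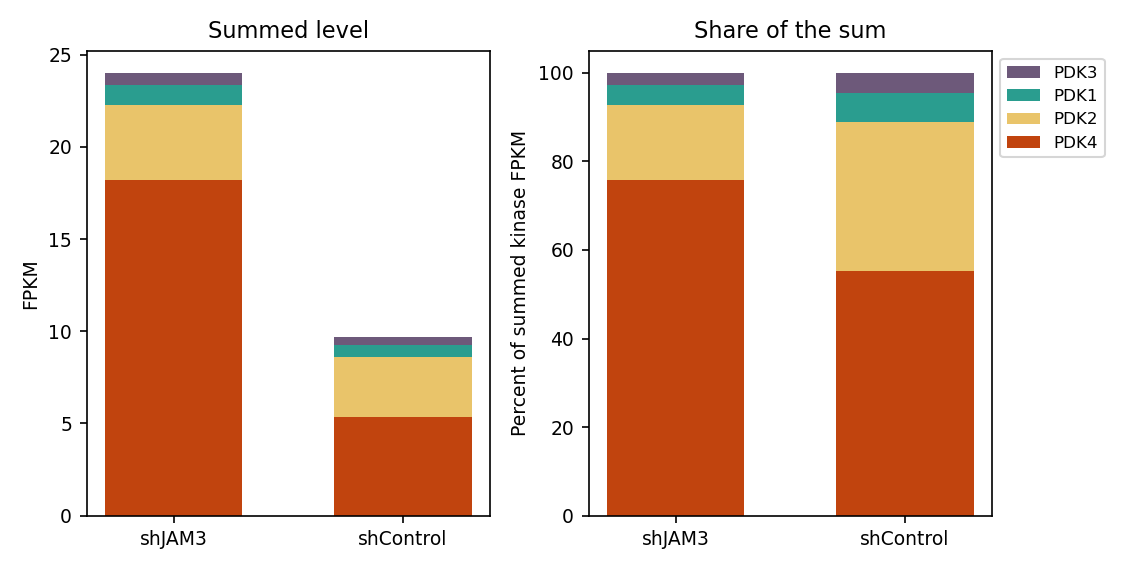
Left, summed FPKM of the 4 kinases in the shJAM3 and shControl libraries, stacked by gene. Right, each kinase as a percentage of that sum; PDK4 makes up 75.9% in shJAM3 and 55.2% in shControl.

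PDK1 lies on chromosome 2 at 172555373 to 172608669, PDK2 on chromosome 17 at 50094737 to 50112152 and PDK3 on chromosome X at 24465221 to 24541862, all on the plus strand of GRCh38. The phosphatases differed in opposite directions by small amounts. PDP1, the calcium-responsive form on chromosome 8, had 5.73 FPKM (5.25 to 6.23) in shJAM3 and 4.12 (3.71 to 4.58) in shControl, a ratio of 1.39 (1.21 to 1.59). PDP2, on chromosome 16, had 7.48 FPKM (7.04 to 7.95) in shJAM3 and 8.15 (7.66 to 8.66) in shControl, a ratio of 0.918 (0.842 to 1.00). With GC centring the ratios were 1.19 (1.04 to 1.36) for PDP1 and 0.830 (0.761 to 0.905) for PDP2, so the PDP2 interval lay below 1 after centring and included it before. PDP2 was 1.31 times PDP1 (1.18 to 1.45) in shJAM3 and 1.98 times (1.75 to 2.23) in shControl. Their sum was nearly level, 13.2 FPKM in shJAM3 and 12.3 in shControl.

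The subunits differed by component. PDHA1 encodes E1 alpha, which carries the serines that the kinases modify. It had 47.0 FPKM (45.4 to 48.5) in shJAM3 and 40.5 (39.0 to 42.1) in shControl, a ratio of 1.16 (1.10 to 1.22). MAP3K15, on the opposite strand and at 7 fragments in shJAM3 and 6 in shControl, overlaps 21.3% of the PDHA1 exon bases. Without strand information, fragments from those bases cannot be assigned. PDHA1 may therefore be understated in levels and in ratios to other genes. PDHB, which encodes the partner chain E1 beta, had 13.2 FPKM (12.4 to 14.0) in shJAM3 and 14.1 (13.3 to 15.0) in shControl, a ratio of 0.937 (0.859 to 1.02). DLAT, the acetyltransferase E2 that forms the core, had 25.7 FPKM (24.6 to 26.8) in shJAM3 and 17.5 (16.6 to 18.5) in shControl, a ratio of 1.46 (1.37 to 1.57). PDHX, the protein that docks E3 on that core, had 15.6 FPKM (14.6 to 16.6) in shJAM3 and 16.7 (15.6 to 17.8) in shControl, a ratio of 0.934 (0.854 to 1.02).

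DLAT and PDHA1 were thus higher in shJAM3 beyond counting error, while PDHB and PDHX differed by less than it. After GC centring DLAT was at 1.30 (1.22 to 1.40) and PDHA1 at 1.08 (1.03 to 1.14), and the intervals of PDHB at 0.823 (0.754 to 0.898) and PDHX at 0.832 (0.760 to 0.910) lay below 1. The proportions within the complex differed accordingly. DLAT was 1.65 times PDHX (1.53 to 1.78) in shJAM3 and 1.05 times (0.967 to 1.14) in shControl. Per principal transcript DLAT was 1.13 times PDHX (1.05 to 1.22) in shJAM3 and 0.724 times (0.666 to 0.787) in shControl, so PDHX was then the higher of the pair in shControl. PDHA1 was 3.55 times PDHB (3.31 to 3.81) in shJAM3 and 2.87 times (2.67 to 3.09) in shControl. Per principal transcript, which for PDHB is 3.09-fold shorter than the union of exons, the PDHA1 to PDHB ratio was 1.56 in shJAM3 and 1.26 in shControl. PDHA1 lies on chromosome X at 19343893 to 19361705, PDHB on chromosome 3 at 58427630 to 58433857, and DLAT and PDHX on chromosome 11 at 112024814 to 112064390 and 34915829 to 35020591. The opposite-strand genes APIP (3.17 FPKM in shJAM3 and 3.16 in shControl) and PIH1D2 (0.339 and 0.0263) overlap 6.89% of the PDHX and 4.39% of the DLAT exon bases. AC135507.1, also on the opposite strand and with no fragment in either library, overlaps 7.63% of the PDHB exon bases. The 4 subunits summed to 101.4 FPKM in shJAM3 and 88.8 in shControl, a ratio of 1.14 (1.10 to 1.18).

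**Figure D3:**
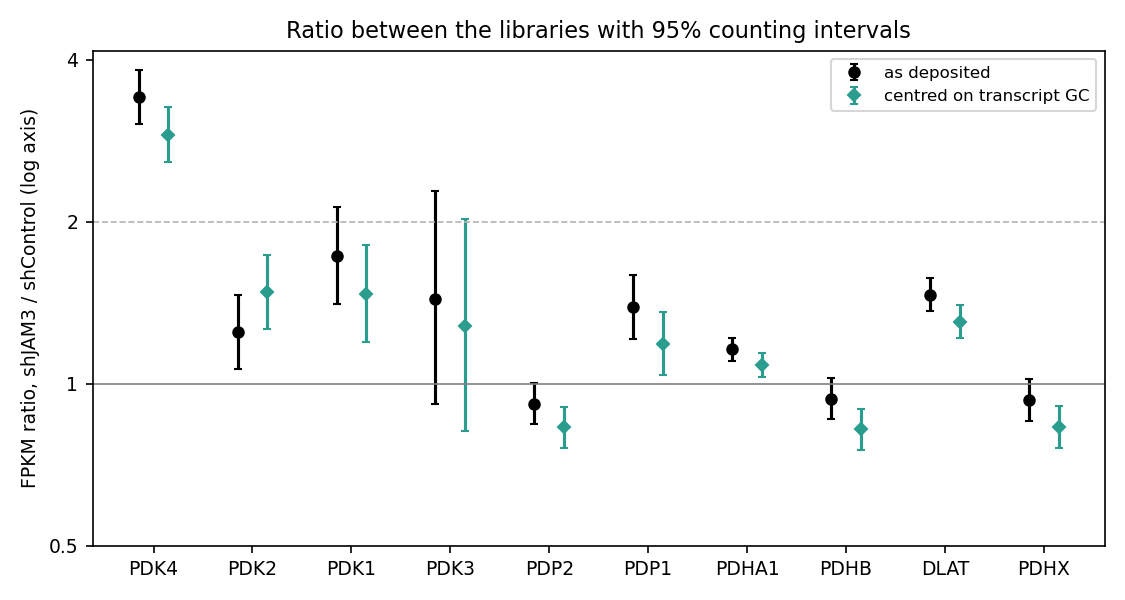
Ratio of FPKM in shJAM3 to shControl (log axis) for the 10 genes, as deposited (circles) and centred on transcript GC (diamonds), with exact 95% intervals for counting error; the solid line marks 1 and the dashed line 2. PDK4 is the one gene above 2, and the GC-centred values of PDP2, PDHB and PDHX lie below 1.

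Within each library the kinases were set against what they act on and what opposes them, a ratio that scaling between libraries does not touch. The GC-related difference between the libraries does not cancel in such ratios, since PDK4 (39.4% GC), PDK2 (59.8%) and PDHA1 (46.6%) differ in GC. Neither these ratios nor the kinase sums and shares above are centred on GC. Fragments from exon bases of PDK2 and PDHA1 under opposite-strand genes cannot be assigned, so both may be understated in these ratios. The summed kinase level was 0.511 times PDHA1 (0.484 to 0.541) in shJAM3 and 0.239 times (0.221 to 0.259) in shControl. It was 1.82 times the summed phosphatases (1.70 to 1.94) in shJAM3 and 0.789 times (0.722 to 0.863) in shControl. Without PDK4 these values were 0.123 (0.113 to 0.135) and 0.107 (0.0965 to 0.119) for PDHA1, and 0.439 (0.399 to 0.483) and 0.354 (0.316 to 0.396) for the phosphatases, in shJAM3 and shControl in each pair. Per kilobase of principal transcript the summed kinases were 1.99 times the phosphatases (1.85 to 2.13) in shJAM3. In shControl they were then 0.921 times (0.841 to 1.01), an interval that includes 1. For PDHA1 the values on that scale were 0.507 (0.479 to 0.536) in shJAM3 and 0.250 (0.231 to 0.272) in shControl. All of these are transcript ratios, and neither protein, phosphorylation nor activity of the complex was measured.

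In shJAM3 the order of levels ran PDHA1, DLAT, PDK4, PDHX, PDHB, PDP2, PDP1, PDK2, PDK1 and PDK3, with no overlap between the counting intervals of neighbours, per kilobase of all exons. In shControl PDK4 came after PDP2, and the intervals of DLAT and PDHX, and of PDK1 and PDK3, overlapped. Per kilobase of principal transcript PDHB came second in both libraries, at 40.8 FPKM in shJAM3 and 43.6 in shControl. On that scale PDK4 came after PDHX in shJAM3, at 23.0 FPKM against 24.5 for PDHX, with overlapping intervals. Those of PDP1 and PDK2 overlapped in both libraries, and those of PDK3 and PDK1 in shJAM3. PDK4 was 2.43 times PDP2 (2.25 to 2.64) in shJAM3 and 0.656 times (0.583 to 0.738) in shControl.

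Of the 10 genes 8 were measured, PDK1 and PDK3 being under the minimum. By a rule of size, a log2 ratio of at least 1 on log2(FPKM + 1), 1 of the 8 was higher in shJAM3 (PDK4) and 0 lower, where 0.391% of measured protein-coding genes were higher and 1.41% lower (1.8% either way). Among the 12214 measured genes of every kind, 1.3% were higher and 2.1% lower (3.41% either way). Counting intervals lay above 1 for 5 of the 8 and below 1 for 0, where they lay above it for 34.5% of measured protein-coding genes and below it for 36.8% (71.3% either way). With GC centring the intervals of 5 of the 8 lay above 1 and those of 3, PDP2, PDHB and PDHX, below it, where 32.5% of measured protein-coding genes lay above and 33.4% below. The median log2 ratio of the 8 was 0.23, and 0.16 with GC centring, beside -0.01 for all 10499. In the ranking of the 10499 genes by log2 ratio DLAT stood at 737, PDP1 at 1510, PDK2 at 2634, PDHA1 at 3022, PDHB at 6074, PDHX at 6132 and PDP2 at 6283.

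**Figure D4:**
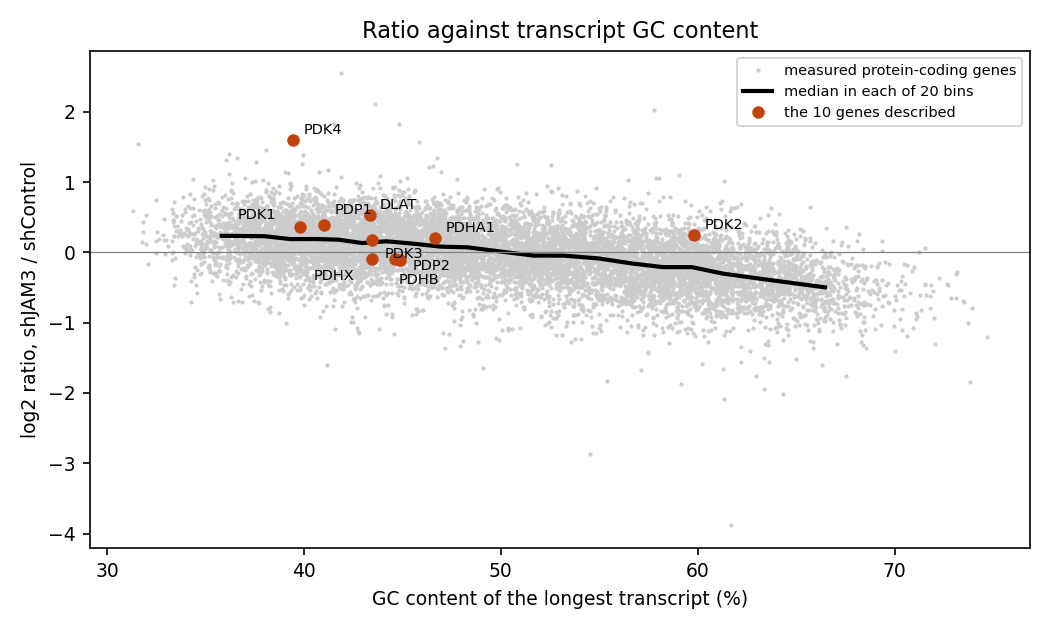
Log2 ratio of shJAM3 to shControl on log2(FPKM + 1) against GC content of the longest transcript, for measured protein-coding genes (grey), the median in each of 20 GC bins (line) and the 10 genes (red). PDK4 at 39.4% GC lies 1.41 above its bin's median, and PDK2 at 59.8% GC lies 0.46 above.

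The complex needs a shared E3 subunit, a regulatory subunit and a lipoyl cofactor built with iron-sulfur proteins. These parts were covered by a list of 15 genes, which also holds sirtuins and a testis copy of E1 alpha. Of the 15 genes 12 were measured, 9 above 0 and 3 below, where 49.4% of measured protein-coding genes were above 0. The median log2 ratio was 0.27 (0.17 with GC centring). By the rule of size 1 was higher, where 0.391% of measured protein-coding genes were. It was ISCA1, an iron-sulfur assembly factor, with 11.3 FPKM in shJAM3 and 4.57 in shControl, a ratio of 2.48 (2.12 to 2.90). GC centring left its log2 ratio at 0.95, under the rule, and 9.66% of its 50-base stretches occur in the pseudogene ISCA1P1. Its partner ISCA2 was at 6.58 FPKM in shJAM3 and 3.00 in shControl, a ratio of 2.19 (1.80 to 2.69). The next were SIRT4, a mitochondrial sirtuin that removes lipoyl groups, at 2.11 (1.17 to 3.98), and BOLA3, needed for lipoylation, at 1.63 (1.33 to 1.99). DLD, the E3 enzyme, was looked at for its role, after its values were seen. It had 14.9 FPKM in shJAM3 and 11.0 in shControl, a ratio of 1.36 (1.24 to 1.48). PDHA2, the testis copy of E1 alpha, also named after its values were seen, had no fragment in either library.

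Import of pyruvate and of thiamine, whose pyrophosphate is the E1 cofactor, was covered by 6 genes, 4 of them measured and 0 past the rule, with a median of 0.28. Both subunits of the mitochondrial pyruvate carrier were higher in shJAM3. MPC1 was at 8.96 FPKM in shJAM3 and 6.23 in shControl (ratio 1.44, 1.16 to 1.78), and MPC2 at 13.9 and 10.5 (1.33, 1.17 to 1.51), where 22.5% of the MPC2 exon bases also belong to other genes. The cell-surface thiamine transporter SLC19A2 was the lower one, at 11.6 FPKM in shJAM3 and 15.5 in shControl (0.746, 0.680 to 0.817).

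The sister complexes for 2-oxoglutarate and branched-chain oxoacids use the same E3 and the same chemistry. Of 10 genes 7 were measured, 4 above 0 and 3 below, 0 past the rule, with a median of 0.20. The largest differences were those of MRPS36, a 2-oxoglutarate dehydrogenase linker, at a ratio of 1.59 (1.27 to 1.99), the branched-chain E2 gene DBT at 1.37 (1.25 to 1.50), BCKDHB, its E1 beta, at 1.44 (1.02 to 2.04) and DLST, the 2-oxoglutarate E2, at 1.15 (1.09 to 1.21). With GC centring the BCKDHB interval included 1, at 1.23 (0.872 to 1.75). A pseudogene holds 6.65% of the 50-base stretches of MRPS36.

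Other enzymes that make or use pyruvate and acetyl-CoA went both ways. Of 15 genes 13 were measured, 5 above 0 and 8 below, 0 past the rule, with a median of -0.15 (-0.04 with GC centring). PC, pyruvate carboxylase, the other mitochondrial exit for pyruvate, had 36.3 FPKM in shJAM3 and 68.2 in shControl, a ratio of 0.532 (0.510 to 0.554), and 10.5% of its exon bases also belong to other genes. GPT, an alanine transaminase, had a ratio of 0.481 (0.377 to 0.609), and PCK2, mitochondrial PEP carboxykinase, 0.594 (0.555 to 0.634). GC centring took their log2 ratios to -0.59 for PC, -0.32 for GPT and -0.42 for PCK2, as against -0.89, -0.81 and -0.72 before it. Counting intervals lay above 1 for 5 of the 13 and below it for 7, where 34.5% of measured protein-coding genes lay above and 36.8% below. On the higher side, the malic enzyme ME2 was at 2.71 FPKM in shJAM3 and 1.41 in shControl, a ratio of 1.92 (1.69 to 2.19).

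**Figure D5:**
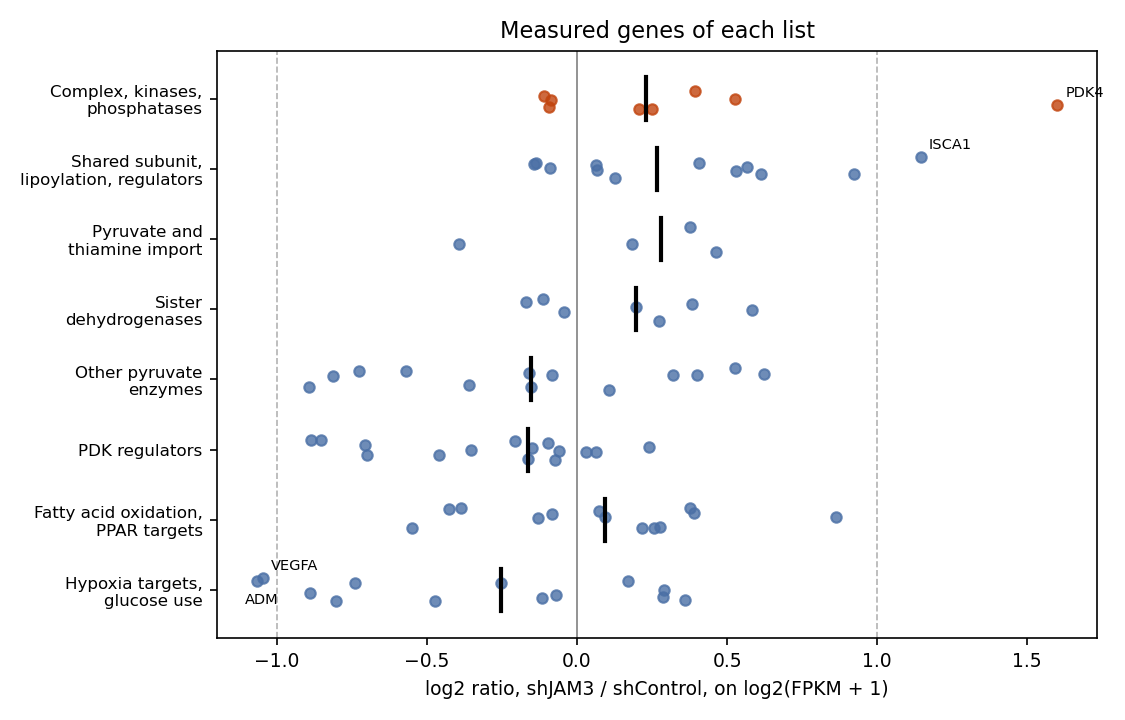
Log2 ratio of shJAM3 to shControl on log2(FPKM + 1) for the measured genes of each list, 1 point a gene, with black bars for medians and dashed lines at the rule of size. Past the rule lie PDK4 and ISCA1 on the higher side and VEGFA and ADM on the lower.

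Transcription factors known to act on PDK genes were mostly lower in shJAM3. All 15 were measured, 3 above 0 and 12 below, 0 past the rule, where 49.4% of measured protein-coding genes were above 0. Counting intervals lay above 1 for 1 and below it for 9, where 34.5% of measured protein-coding genes lay above and 36.8% below. The median was -0.16 (-0.17 with GC centring). FOXO4 was at 8.75 FPKM in shJAM3 and 17.0 in shControl (ratio 0.514, 0.460 to 0.573), the oestrogen-related receptor gene ESRRA at 40.6 and 74.2 (0.547, 0.518 to 0.578), RXRA, the partner of PPARs, at 15.6 and 26.1 (0.598, 0.571 to 0.627) and HIF1A at 25.4 and 41.9 (0.606, 0.574 to 0.640). FOXO1 and FOXO3, named for their role after their values were seen, had ratios of 0.948 (0.815 to 1.10) and 0.925 (0.831 to 1.03), intervals that include 1. With GC centring the FOXO3 interval lay below 1, at 0.877 (0.788 to 0.977). Near copies hold 27.8% of the 50-base stretches of FOXO3, and 9.37% of the ESRRA exon bases belong to other genes too. AKT acts on FOXO proteins by keeping them out of the nucleus, which transcript levels do not show.

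Genes that often accompany PDK4 in fatty acid oxidation and as PPAR targets lay on both sides of 0. Of 18 genes 13 were measured, 8 above 0 and 5 below, 0 past the rule, with a median of 0.09. FABP3, a fatty acid binding protein, was at 9.35 FPKM in shJAM3 and 4.70 in shControl (ratio 1.99, 1.50 to 2.66), and ACADM, a fatty acid dehydrogenase, had a ratio of 1.37 (1.20 to 1.56). ANGPTL4, a secreted lipase inhibitor and PPAR target, was at 4.06 and 6.40 FPKM (0.634, 0.518 to 0.775), with a GC-centred ratio of 0.858 (0.701 to 1.05) that includes 1, and HADHA, of the trifunctional protein, had a ratio of 0.740 (0.707 to 0.774).

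Hypoxia targets, most of them genes of glucose use, were mostly lower in shJAM3. PDK1, usually placed among them, had a ratio above 1 but was under the measured minimum. Of 15 genes 13 were measured, 4 above 0 and 9 below, where 49.4% of measured protein-coding genes were above 0. Counting intervals lay above 1 for 4 of the 13 and below it for 8. The shares of measured protein-coding genes were 34.5% above and 36.8% below. The median was -0.25 (-0.21 with GC centring). The 4 above 0 were ENO1, ALDOC, PGK1 and BNIP3, named here after their values were seen. With GC centring 5 were above 0, and the PGK1 interval, above 1 before, included 1, at 1.00 (0.977 to 1.03). By the rule of size 2 were lower, where 1.41% of measured protein-coding genes were. They were ADM (3.24 FPKM in shJAM3 and 7.88 in shControl) and VEGFA (10.2 and 22.1). After GC centring neither was past the rule, at log2 ratios of -0.86 and -0.96. The fructose-2,6-bisphosphate enzyme PFKFB3 had a ratio of 0.511 (0.469 to 0.557) and hexokinase HK2 one of 0.568 (0.546 to 0.590), with 8.16% of the HK2 50-base stretches in its pseudogene.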

How the data were processed

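The authors deposited 1 table of FPKM with gene lengths; the submitters' processing notes list edgeR 3.22.5 and DESeq2 1.20.0, the aligners STAR and HISAT2 2.0.5, and fastp, featureCounts 1.5.0-p3, STAR-Fusion and GATK 4.1.1.0, without saying what each did here. The genome build was not given in the sources used here; all 58735 identifiers, coordinates and lengths were identical to GENCODE 29 (GRCh38). FPKM times length gave whole fragments for 100% of values above 0 (tolerance 0.001 fragments). The library sizes implied by the deposited FPKM are 1.01 (shJAM3) and 0.987 (shControl) times the recovered totals. The protocol describes no strand marking and no molecular identifiers, so PCR copies make the counting intervals too narrow.

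Where a symbol occurred more than once, the entry with the highest mean was kept (1566 others left out). Ratios carry exact conditional binomial intervals, levels exact Poisson intervals, and sums and within-library ratios delta-method intervals (scipy 1.17.1). GC content was that of each gene's longest transcript, and centring used 20 bins of measured protein-coding genes. The calculations were checked on simulated counts.

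The members and the 7 gene lists (94 genes) were chosen with earlier results of these data known. Named list members were those past the rule of size and up to 4 with the largest absolute log2 ratio; genes named outside this are said to be so. A list gene that this rule picks is not reported here.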

Additional observations from a re-analysis of the deposited data

How the results depend on the processing

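Under a pseudocount of 0.1 FPKM, 2 other scalings, GC centring, and GC centring without the added 1 (chosen after seeing the data), none of the 10 genes changed direction; the log2 ratio of PDK4 ranged from 1.41 to 1.75, that of DLAT from 0.38 to 0.56 and that of PDHX from -0.27 to -0.06. The median of the members was 0.06 with a minimum of 5 FPKM. The count of the 10 past the rule of size was 1 throughout. A pseudocount of 0.1 FPKM took the assembly list to 3 genes past the rule and the pyruvate enzymes to 1. GC centring took the assembly list and the hypoxia list to 0 each. The summed kinase ratio was 1.34 without PDK4. The kinase to PDHA1 ratio became 0.947 in shJAM3 and 0.436 in shControl with the mean of the 4 subunits below the line, and 0.123 in shJAM3 and 0.107 in shControl without PDK4. Lengths of principal transcripts, also chosen after seeing the data, exchanged PDK1 and PDK3 in order and moved PDHB to second. They moved PDK4 below PDHX in shJAM3 and put PDHX above DLAT in shControl. In shJAM3 the intervals of PDK3 and PDK1, and of PDHX and PDK4, overlapped with those lengths. Counting intervals that excluded 1 numbered 8 of the 8 measured members with GC centring, an alternative added later, against 5 without it. With 1 library a group no library could be left out. No paired analysis was possible because each group has 1 library.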

Other observations

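Among the listed genes, BCKDHA, the E1 alpha of the branched-chain complex, was nearly absent at 0.0461 FPKM in shJAM3 and 0.0250 in shControl. Of its exon bases 64.6% are shared with other genes. AC011462.1, which holds 56.9% of the BCKDHA 50-base stretches, had no fragment in either library. ALDOA, a glycolytic enzyme usually abundant, stood at 1.76 FPKM in shJAM3 and 1.99 in shControl, with 53.5% of its exon bases shared with other genes. AC093512.2, which holds the most of its sequence, was at 0.979 FPKM in shJAM3 and 0.715 in shControl. Both genes were singled out after their values were seen, and the part of the overlaps in these levels was not tested.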
